A study of Zea mays with 12 samples.

Results

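Cytochrome P450 genes were followed in the roots of maize plants short of potassium (K), nitrogen (N) or phosphorus (P). They were picked by the words "cytochrome P450" in the deposited gene description, which 92 of the 37385 listed genes carry. Of these, 4 NADPH-cytochrome P450 reductases and 5 genes with a phenylpropanoid pathway entry were left out, which leaves 83 genes. A heme-binding or monooxygenase term, the mark of the enzyme class, stands in the deposited annotation of 77 of the 83. Of the rest, 4 carry no gene ontology term of any kind. The description of 59 reads only that they are putative superfamily proteins, so their roles below come from the pathway and gene ontology terms beside them or from RefSeq synonyms.

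The roots came from 40-day-old plants of the maize line DengHai605 under potassium deficiency, nitrogen deficiency, phosphorus deficiency, or normal levels of all 3 nutrients (the control). No other treatment or genotype separates the groups, and the sources used here do not give the nutrient concentrations or how long the deficiency lasted. Each group has 3 RNA-seq libraries, labelled 1_3, 4_6 and 7_9. The labels do not say whether these are separate plants or pools, so p-values measure the spread between these libraries.

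Cytochrome P450s are heme enzymes that use molecular oxygen and electrons, passed on by a reductase or by cytochrome b5, to oxidise small molecules. In plants they make and break down hormones such as strigolactones, brassinosteroids, gibberellins, cytokinins, abscisic acid and jasmonates, and they build sterols, suberin monomers and defence compounds. In maize roots they are best known for benzoxazinoids, the indole-derived defence compounds of grasses, and for strigolactones, which roots release under phosphate shortage and which also act inside the plant on branching.

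Levels are given as deposited FPKM (fragments per kilobase, scaled to the mapped reads of each library). Changes are differences on the log2(FPKM + 1) scale from limma, tested over the 24311 genes that reached 0.5 FPKM in at least 3 of the 12 libraries, and a gene passed when its Benjamini-Hochberg adjusted p was under 0.05. This scale understates the change of genes expressed near or below 1 FPKM. A fold is a ratio of group mean FPKM. Of the 83 genes, 76 could be tested (91.6%, against 65.0% of all genes). The other 7 stayed at or under 0.4 FPKM in every library; they are LOC100217090, LOC100383359, LOC100384011, LOC100280087, LOC103646055, LOC100383167 and LOC100194166, and LOC100280087 is listed at 0 in all 12.

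Depth was even, at 15737750 to 18465979 recovered reads per library. In whole roots, fewer cells of a type and less RNA per cell cannot be told apart. The 19 root marker genes were all detected, with summed levels of 270.0 to 312 FPKM in the K-deficient libraries, 317 to 342 in the N-deficient, 203 to 229.6 in the P-deficient and 258 to 283 in the control libraries. Against control, 4 of the 19 were higher and 1 lower under K deficiency, 5 higher and 2 lower under N deficiency, and 1 higher and 7 lower under P deficiency. Among those higher under N deficiency were the nitrate transporters nrt2 and nrt2.2. They averaged 55.5 and 33.1 FPKM there and 2.35 and 1.62 FPKM in the control, and so weigh heavily on the summed N-deficient level. The median change of the 19 under N deficiency was 0.01. The 24 markers of green shoot tissue summed to 22.5 to 27.7 FPKM in the K-deficient libraries, 8.42 to 14.4 in the N-deficient, 17.6 to 22.6 in the P-deficient and 54.5 to 77.6 in the control libraries. Of the 24, 5, 5 and 4 were at 0 in every K-, N- and P-deficient library and 4 in every control library. Of the 12 that could be tested, none was higher, and 4, 6 and 6 were lower under K, N and P deficiency. For both lists, the shares of all tested genes were 4.83%, 9.63% and 13.0% higher under K, N and P deficiency. Those lower were 3.89%, 9.33% and 10.4%. Both lists move with the groups, and their part in the results below was not tested.

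A few genes supplied most of the P450 transcript in these roots. LOC103643029, described as 94C1-like, averaged 624 FPKM over the 12 libraries and made up 25.5% of the summed P450 level. Next came LOC100383693 (330.0 FPKM, 13.5%), LOC100501815 (139), cyp12 (129), CYP71C1 (124) and cyp10 (123), and these 6 genes together held 60.1%. The median gene averaged 7.33 FPKM. Beside the 6 above 100 FPKM, 31 genes averaged 10 to 100 FPKM, 34 averaged 1 to 10, and 12 stayed below 1.

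The summed P450 level spread as widely within groups as between them. It was 1798, 2956 and 2559 FPKM in the K-deficient libraries, 2372, 2625 and 3202 in the N-deficient, 2040.5, 2435 and 2882 in the P-deficient, and 1832, 3029 and 1611 in the control libraries, in the order 1_3, 4_6, 7_9, which is kept throughout. The control range covered all but 1 of the deficient libraries. Without the 2 most abundant genes the sum averaged 1718 ± 199 FPKM under K deficiency, 1529.7 ± 87.1 under N deficiency, 1488 ± 147 under P deficiency and 1229.9 ± 130.2 in the control (SD, n = 3 each).

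Against control, 12 of the 76 tested P450 genes were higher (15.8%, against 4.83% of all tested genes) and 5 lower (6.58%, against 3.89%) under K deficiency. Under N deficiency 14 were higher (18.4%, against 9.63%) and 8 lower (10.5%, against 9.33%). Under P deficiency 15 were higher (19.7%, against 13.0%) and 9 lower (11.8%, against 10.4%). The shares of lower P450 genes under N and P deficiency thus lie close to the background. The median P450 gene changed by 0.22, 0.25 and 0.23 under K, N and P deficiency, beside 0.07, 0.04 and 0.08 for the median of all tested genes. The deficient and control libraries did not overlap for 32, 32 and 38 P450 genes under K, N and P deficiency, against 28.0%, 34.2% and 39.2% of all tested genes; as shares of the 76 these are 42.1%, 42.1% and 50%. The 3 comparisons share the same control libraries.

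These counts lean on single libraries. The 12 higher under K deficiency became 7 without K library 1_3, 5 without K library 7_9, 6 without control library 1_3 and 7 without control library 4_6, and the 5 lower became 3 without control library 1_3. The 14 higher under N deficiency became 9 without N library 4_6 and 8 without control library 1_3. The 15 higher under P deficiency became 9 without control library 1_3.

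**Figure D1:**
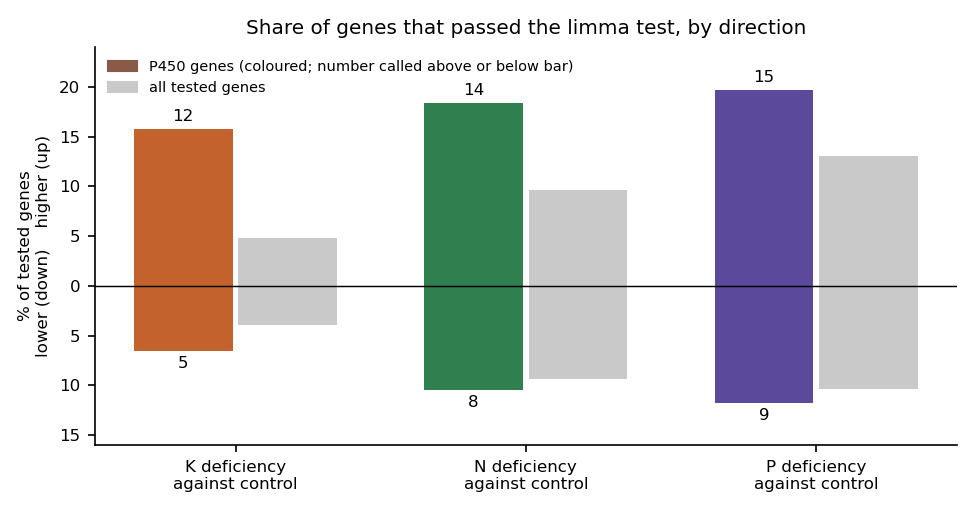
Share of tested genes that passed against the control, in percent, for each deficiency; bars above 0 are genes that were higher and bars below 0 genes that were lower, coloured for P450 genes and grey for all tested genes, with the number of P450 genes printed. The coloured bars reach 15.8%, 18.4% and 19.7% above 0 under K, N and P deficiency, beside grey bars of 4.83%, 9.63% and 13.0%.

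Of the 76 tested genes, 36 passed against control in at least 1 deficiency (47.4%, against 34.4% of all tested genes). Of them 18 passed in 1 (23.7%, against 22.1%), 9 in 2 (11.8%, against 7.78%) and 9 in all 3 (11.8%, against 4.47%). None passed in opposite directions, which 0.543% of all tested genes did. MAX1b, LOC100273597, LOC100501664, LOC100272916 and LOC100501672 were higher in all 3 (6.58%, against 1.35%). CYP78A53, umc1299, LOC100382386 and LOC100501109 were lower in all 3 (5.26%, against 2.96%). The remaining 40 passed in none. The authors' deposited table, under the same threshold, shares 49 of the 63 calls, lacks 14 and adds 4, which are LOC100272761 (log2 ratio 0.77, adjusted p = 0.0208) and LOC100274356 under K deficiency, LOC103640488 under N deficiency and LOC100279536 under P deficiency.

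**Figure D2:**
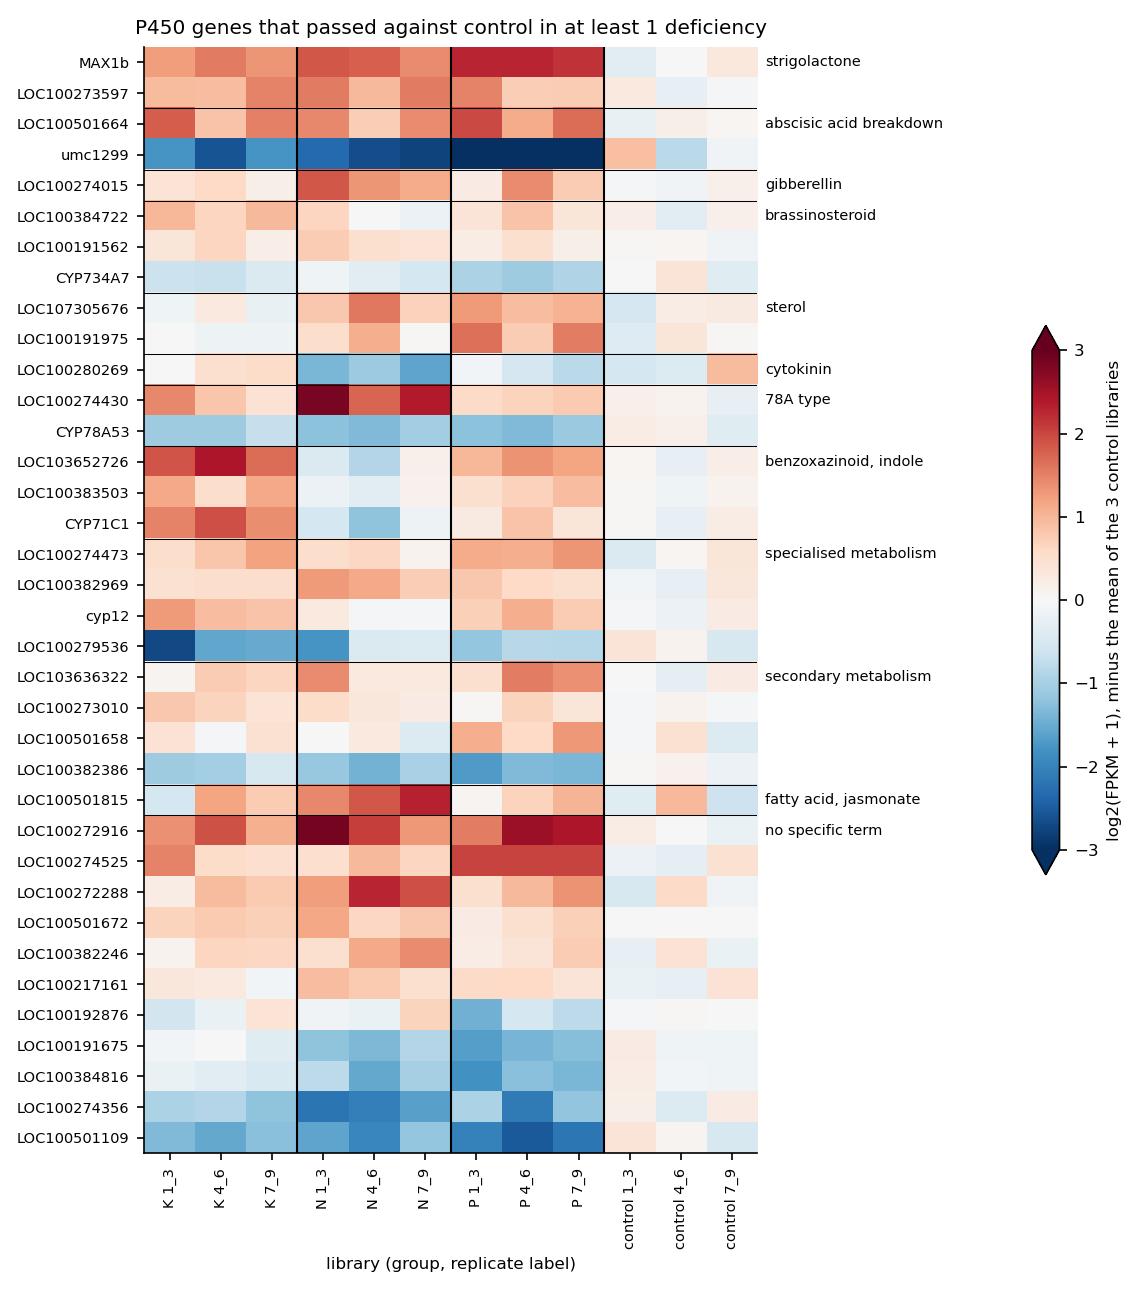
Change in each of the 12 libraries (columns, by group and replicate label) for the 36 P450 genes that passed against the control in at least 1 deficiency (rows, ordered by role); colour is log2(FPKM + 1) minus the mean of the 3 control libraries, red higher and blue lower. MAX1b is red and umc1299 blue in all 9 deficient libraries, while LOC103652726 and CYP71C1 are red in the K-deficient libraries and pale or blue in the N-deficient ones.

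Of the 3 tested strigolactone genes, 2 were higher in every deficiency. Of all tested genes, 4.83%, 9.63% and 13.0% were higher and 3.89%, 9.33% and 10.4% lower under K, N and P deficiency. The counts of each role group below are to be read against these shares. MAX1 enzymes oxidise carlactone, the product of the carotenoid cleavage steps, on the way to strigolactones. MAX1b (gene 103649703) had 8.95, 11.3 and 9.42 FPKM in the K-deficient libraries, 14.3, 13.4 and 10.2 in the N-deficient and 19.3, 19.4 and 17.8 in the P-deficient, against 2.33, 3.24 and 4.16 FPKM in the control. All 9 deficient libraries lay above all 3 control libraries, with P deficiency the highest. The change was 1.38, 1.70 and 2.25 under K, N and P deficiency (SE 0.17 each; adjusted p = 0.0007, 5.73e-05 and 1.49e-05), or 3.05-, 3.9- and 5.81-fold. P deficiency also exceeded K deficiency directly, by 0.87 (adjusted p = 0.0127). The 3 calls against control stood under all 22 alternative settings tried.

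LOC100273597, named MAX1a in RefSeq, had 13.4, 13.1 and 19.9 FPKM in the K-deficient libraries, 21, 13.6 and 20.9 in the N-deficient and 20, 11.4 and 11.7 in the P-deficient, against 8.16, 5.25 and 6.21 FPKM in the control. Again no deficient library reached down to the control range. It rose by 1.12, 1.36 and 1.0 under K, N and P deficiency (SE 0.25; adjusted p = 0.0201, 0.00327 and 0.0176). The K call was lost without K library 7_9 (0.0783) or control library 4_6 (0.0718), and the P call without P library 1_3 (0.0619) or control library 4_6 (0.0613). The third gene with the same shoot-branching term, LOC100279319, was low everywhere, at 1.73 ± 0.777, 1.36 ± 0.427 and 1.52 ± 0.36 FPKM under K, N and P deficiency and 1.38 ± 0.381 FPKM in the control (SD, n = 3), and passed in none.

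**Figure D3:**
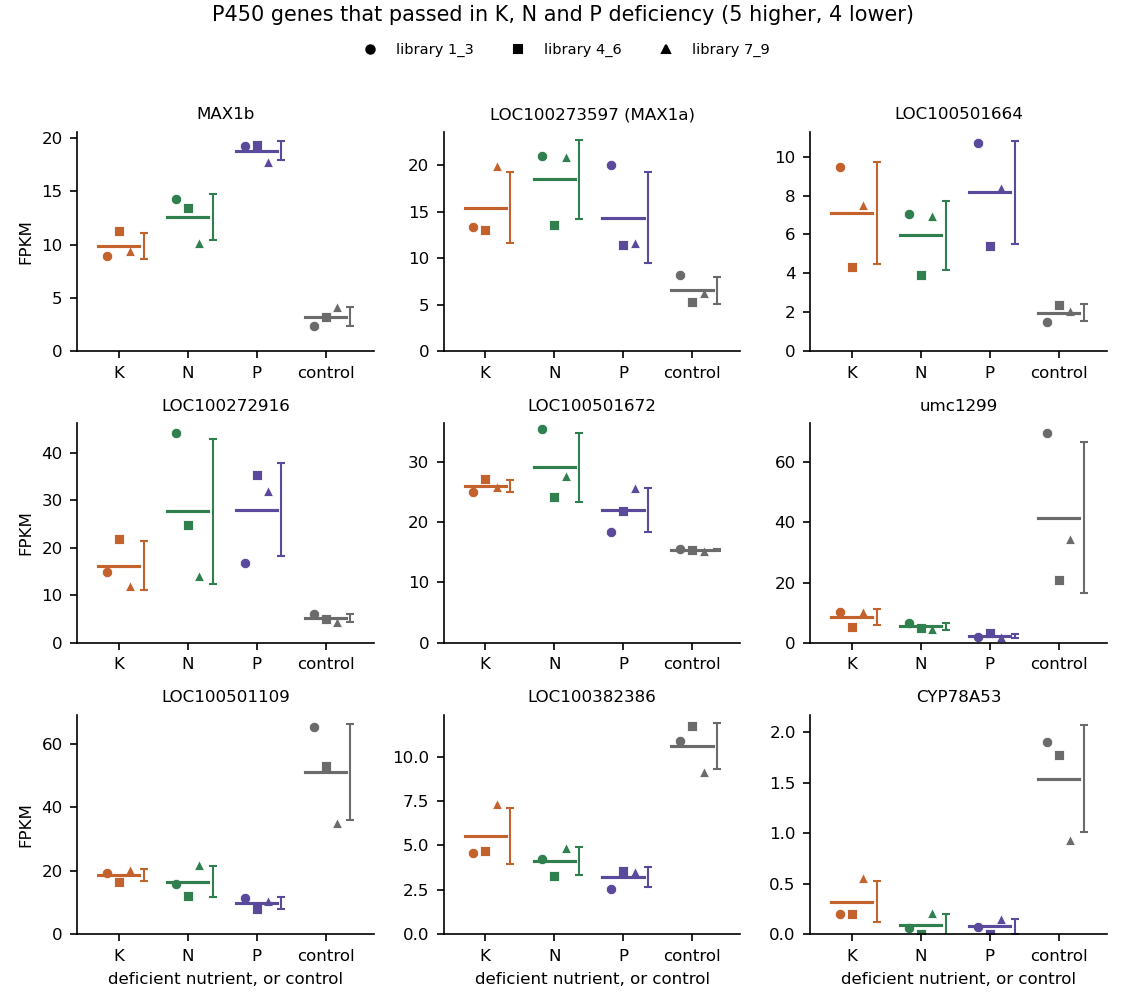
FPKM in each library of the 9 P450 genes that passed against the control in all 3 deficiencies; symbols are libraries (1_3 circle, 4_6 square, 7_9 triangle), lines the mean and bars the SD of 3 libraries. MAX1b lies between 8.95 and 19.4 FPKM in the deficient libraries and between 2.33 and 4.16 in the control, and umc1299 between 1.75 and 10.1 in the deficient libraries and between 20.7 and 69.6 in the control.

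Of 3 genes annotated with abscisic acid 8'-hydroxylase activity, the step that opens the breakdown of this stress hormone, 1 was higher and 1 lower in every deficiency. The lower one, umc1299 (gene 100274595), had 10.1, 5.32 and 10.05 FPKM in the K-deficient libraries, 6.53, 5.02 and 4.55 in the N-deficient and 1.85, 3.11 and 1.75 in the P-deficient, against 69.6, 20.7 and 34.5 FPKM in the control. The control libraries differed widely from each other, yet the lowest of them stood above every deficient library. The change was -2.04, -2.59 and -3.57 under K, N and P deficiency (SE 0.37; adjusted p = 0.0064, 0.000671 and 9.04e-05), which is 4.9-, 7.75- and 18.6-fold lower. The values rest on 157 to 290, 131 to 201 and 46 to 85 reads per K-, N- and P-deficient library and 613 to 1995 per control library. The authors' deposited table gives an adjusted p of 0.104 for the K comparison.

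LOC100501664, with the same term, had 9.48, 4.32 and 7.51 FPKM in the K-deficient libraries, 7.06, 3.92 and 6.93 in the N-deficient and 10.7, 5.41 and 8.39 in the P-deficient, against 1.52, 2.35 and 2.08 FPKM in the control. It rose by 1.40, 1.20 and 1.59 (SE 0.29; adjusted p = 0.0136, 0.0148 and 0.00386), with no overlap with the control in any deficiency. The K call was lost without K library 1_3 (0.0579), K library 7_9 (0.0508) or control library 1_3 (0.0638), and the N call without N library 1_3 (0.0568) or control library 1_3 (0.065). The third, LOC100383693, ranked second among the P450 genes by mean FPKM over the 12 libraries and passed in none. Its level was 96.2, 344 and 270.0 FPKM in the K-deficient libraries, 277, 331 and 535 in the N-deficient and 231, 289.5 and 487 in the P-deficient, against 211, 706 and 183 FPKM in the control, so the control range spanned all but 1 of the 9.

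Of 4 tested benzoxazinoid and indole genes, 3 were higher under K deficiency, none under N deficiency and 2 under P deficiency, and none was lower. LOC103652726, described as 71C3 and named BX5 in RefSeq, and CYP71C1 (gene 100382554), named BX4, carry out successive oxygenations on the way from indole to the benzoxazinoid ring. LOC103652726 had 119.7, 174 and 103 FPKM in the K-deficient libraries, 23.1, 16.6 and 35.3 in the N-deficient and 64.2, 81.6 and 72.9 in the P-deficient, against 32.8, 26.4 and 36.4 FPKM in the control. It was thus clearly apart from the control under K and P deficiency and mixed with it under N deficiency. It rose 4.15-fold under K deficiency (2.0, SE 0.26, adjusted p = 0.000875) and 2.29-fold under P deficiency (1.17, adjusted p = 0.00971), and its change under N deficiency was -0.39 (adjusted p = 0.332). Directly, N deficiency was lower than K deficiency by 2.39 (adjusted p = 0.000219) and lower than P deficiency by 1.56 (adjusted p = 0.00408). These 4 calls stood under every alternative tried.

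CYP71C1 had 225, 307 and 211 FPKM in the K-deficient libraries, 54.6, 34.1 and 71.1 in the N-deficient and 96.5, 146 and 103 in the P-deficient, against 81.1, 67.1 and 92.9 FPKM in the control. Only K deficiency passed against the control, at 3.08-fold (1.61, SE 0.26, adjusted p = 0.00372), while N deficiency changed by -0.63 (adjusted p = 0.124) and P deficiency by 0.50 (adjusted p = 0.186). N deficiency was below K deficiency by 2.24 (adjusted p = 0.000379). P deficiency was below K deficiency by 1.10 (adjusted p = 0.0274) and N deficiency below P deficiency by 1.14 (adjusted p = 0.0218). The P against K call was lost without any 1 of K libraries 1_3 (0.0615), 4_6 (0.0878) and 7_9 (0.0518) or P libraries 1_3 (0.089) and 7_9 (0.0934). The N against P call was lost without N library 4_6 (0.0681) or P library 4_6 (0.0503) or 7_9 (0.0511), and when only those 6 libraries were fitted (0.063).

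LOC100383503 is annotated with indole-2-monooxygenase activity, the first oxidation of indole in this pathway. It had 6.3, 3.85 and 6.3 FPKM in the K-deficient libraries, 1.98, 1.66 and 2.63 in the N-deficient and 3.7, 4.41 and 5.38 in the P-deficient, against 2.43, 2.04 and 2.59 FPKM in the control. The K- and P-deficient libraries lay above the control, and the N-deficient ones around it. The change was 0.93 (SE 0.19; adjusted p = 0.0124) under K deficiency, 0.71 (adjusted p = 0.0233) under P deficiency and -0.13 (adjusted p = 0.695) under N deficiency. N deficiency was below K deficiency by 1.06 (adjusted p = 0.0055) and below P deficiency by 0.83 (adjusted p = 0.0207). The K call was lost without K library 1_3 (0.0547) or 7_9 (0.0524), and the P call without P library 7_9 (0.0859), control library 1_3 (0.0684) or control library 4_6 (0.0744), and in the authors' deposited table (0.0823). The N against P call was lost without N library 1_3 (0.055) or 4_6 (0.0749) or P library 7_9 (0.0781). The fourth gene of the group, sog1226c, described as 71A26, had 1.93 ± 0.564, 0.642 ± 0.406 and 0.785 ± 0.168 FPKM under K, N and P deficiency and 1.66 ± 1.78 FPKM in the control (SD, n = 3) and passed in no comparison against control.

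A list of benzoxazinoid genes outside the P450 set chosen here held 8 tested genes. It included the beta-glucosidase glu1 and the indole-3-glycerol phosphate lyase igl1, which passed in none. Of the 8, 2 were higher and none lower under K deficiency. Under N deficiency 1 was higher, which was glu1, and 1 lower. Under P deficiency 5 were higher, glu1 among them, and none lower. Of all tested genes, 4.83%, 9.63% and 13.0% were higher and 3.89%, 9.33% and 10.4% lower under K, N and P deficiency. Bx7, an O-methyltransferase, rose by 1.43 under K deficiency (adjusted p = 0.00707) and 1.65 under P deficiency (adjusted p = 0.00178), and bx6, a dioxygenase, by 1.23 (adjusted p = 0.0179) and 1.10 (adjusted p = 0.0158). The glucosyltransferases bx8 and bx9 rose under P deficiency by 0.48 (adjusted p = 0.0301) and 0.47 (adjusted p = 0.0321). The beta-glucosidase glu1 rose by 1.13 under N deficiency (adjusted p = 0.0313) and 1.28 under P deficiency (adjusted p = 0.018). The gene for the entry enzyme, bx1, had 17.3, 8.88 and 38.5 FPKM in the N-deficient libraries, against 97.9, 63.4 and 57.7 FPKM in the control, and fell by 1.90 on the log2 scale (adjusted p = 0.0136). The P450 gene bx2, which the description did not select, had 17.2 ± 13.1, 1.06 ± 0.864 and 5.46 ± 5.69 FPKM under K, N and P deficiency and 4.2 ± 1.97 FPKM in the control (SD, n = 3), with no call. Leaving out single libraries ended several of these calls. The bx6 call under K deficiency was lost without K library 1_3 or 4_6 or control library 1_3 (0.0553 to 0.0717), and under P deficiency without P library 1_3 (0.0541) or control library 1_3 (0.0555). The bx6 call under K deficiency was also lost with those 6 libraries alone (0.0584) and in the authors' deposited table (0.0755). The bx8 and bx9 calls were each lost without P library 1_3 or 7_9 or control library 1_3 or 4_6 (0.0862 to 0.108 for bx8, 0.0619 to 0.118 for bx9). Both were also lost with median-ratio scaling (0.0613 and 0.0745) and with the 6 libraries compared alone (0.111 and 0.11). The authors' deposited table gives an adjusted p of 0.314 for bx8 and 0.267 for bx9. The glu1 call was lost under N deficiency without any 1 N library or control library 1_3 (0.0599 to 0.106) and under P deficiency without P library 4_6 or 7_9 or control library 1_3 (0.0525 to 0.0603), and the bx1 call without N library 4_6 (0.0507) or control library 1_3 (0.0625). With the 6 libraries compared alone, glu1 lost its N call (0.0672) and its P call (0.0744). The authors' deposited table gives an adjusted p of 0.0605 for glu1 under P deficiency. The Bx7 calls stood.

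Among 6 tested genes with terms for other specialised compounds, 2 were higher and 1 lower under K deficiency, 1 higher under N deficiency and 3 higher under P deficiency. The most abundant was cyp12 (gene 100284686), annotated with flavonoid 3'-monooxygenase activity, which adds a hydroxyl group to the flavonoid B ring. It had 209.9, 164 and 158 FPKM in the K-deficient libraries, 107, 84.6 and 84.7 in the N-deficient and 143, 186 and 147 in the P-deficient, against 83.6, 75.9 and 102 FPKM in the control. As with LOC103652726, the K- and P-deficient libraries stood clear of the control and the N-deficient ones did not. The change was 1.01 (SE 0.17; adjusted p = 0.00466) under K deficiency, 0.86 (adjusted p = 0.00641) under P deficiency and 0.08 (adjusted p = 0.801) under N deficiency. N deficiency was below K deficiency by 0.94 (adjusted p = 0.00644) and below P deficiency by 0.78 (adjusted p = 0.0183), the second lost without N library 4_6 (0.0664) or 7_9 (0.0618).

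LOC100274473 had 47.1, 57.6 and 75.4 FPKM in the K-deficient libraries, 47, 50.02 and 34.7 in the N-deficient and 70.4, 69.5 and 82.2 in the P-deficient, against 23.5, 33.8 and 41.8 FPKM in the control. It rose by 1.17 (SE 0.23; adjusted p = 0.00509) under P deficiency. Its rise of 0.85 under K deficiency (adjusted p = 0.0408) was lost without K library 4_6 or 7_9, N library 1_3 or 4_6, any 1 of the 3 P libraries, or control library 1_3 or 4_6 (0.0515 to 0.158), and in the authors' deposited table (0.067). LOC100279536 had 2.28, 6.26 and 6.49 FPKM in the K-deficient libraries, 5.27, 14.8 and 15.3 in the N-deficient and 8.69, 11 and 10.8 in the P-deficient, against 27.1, 22.1 and 14.3 FPKM in the control, a change of -1.93 under K deficiency (SE 0.40; adjusted p = 0.013), lost without control library 1_3 (0.0633). Its change of -0.95 under P deficiency did not pass (adjusted p = 0.107), although the P-deficient libraries were all below the control and the authors' deposited table calls it (log2 ratio -1.12, adjusted p = 0.0281). LOC100382969, of family 76, was singled out after its values were seen. It rose by 1.05 under N deficiency (SE 0.18; adjusted p = 0.00185) and by 0.63 under P deficiency (adjusted p = 0.0269), this last call lost without P library 1_3 (0.0932), control library 1_3 (0.0969) or control library 4_6 (0.0936), and in the authors' deposited table (0.186).

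Hormone synthesis and turnover beyond strigolactones and abscisic acid gave scattered calls. Of 6 tested brassinosteroid genes, 1 was higher under K deficiency, 1 higher under N deficiency and 1 lower under P deficiency. The lower one was CYP734A7 (gene 100286851), whose family inactivates brassinosteroids by hydroxylation in Arabidopsis and rice. It had 16.8, 16.5 and 19.6 FPKM in the K-deficient libraries, 24.4, 20.8 and 18.2 in the N-deficient and 13.3, 12.2 and 13.7 in the P-deficient, against 26.5, 34.9 and 20.4 FPKM in the control. All P-deficient libraries lay below all others, and the change was -0.98 under P deficiency (SE 0.18; adjusted p = 0.00363), -0.57 under K deficiency (adjusted p = 0.073) and -0.33 under N deficiency (adjusted p = 0.226). The P call against control stood under every alternative tried. Directly, P deficiency was lower than N deficiency, a call lost without any 1 of 10 libraries (up to 0.112). P deficiency against K deficiency did not pass for this gene.

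On the synthesis side, LOC100191562, named Dwf4 in RefSeq after a rate-limiting hydroxylase, rose by 0.55 under N deficiency (SE 0.15; adjusted p = 0.0272). It had 6.92, 5.49 and 5.26 FPKM there, against 3.81, 3.87 and 3.36 FPKM in the control. That call was lost without N library 1_3 (0.0991) or 4_6 (0.0562), without control library 1_3 (0.07) or 7_9 (0.0741), and in the authors' deposited table (0.113). LOC100384722, with a brassinosteroid term, rose by 0.87 under K deficiency (SE 0.23; adjusted p = 0.0406), lost without any 1 of the 3 K or 3 control libraries, N library 4_6 or P library 7_9 (0.0527 to 0.135). Both were singled out after their values were seen. The gene umc1612, described as 90A1, an enzyme of brassinosteroid synthesis in Arabidopsis, had 15.5, 10.04 and 7.97 FPKM in the P-deficient libraries, against 6.93, 6.58 and 7.14 FPKM in the control, and just missed the threshold (0.58, SE 0.20, adjusted p = 0.0551). LOC100193331 and LOC100382270 passed in none. A search of the annotation for brassinosteroid and dwarfing names outside the P450 set gave 17 tested genes, of which none passed under K deficiency, 4 were higher and 1 lower under N deficiency, and 6 were higher and 1 lower under P deficiency. The search also caught the DELLA genes D8 and LOC100127531 and the dwarfing gene d3, which belong to gibberellin biology. The gene d3 is known to encode a P450 of gibberellin synthesis but is not described as one in the annotation used to choose the members, and D8 and d3 are among the higher ones under both N and P deficiency. Without these 3, of 14 genes none passed under K deficiency, 2 were higher and 1 lower under N deficiency, and 4 were higher and 1 lower under P deficiency, beside the 9.63% higher and 9.33% lower of all tested genes under N deficiency and the 13.0% and 10.4% under P deficiency. Most of the 14 are described as brassinosteroid receptor kinases or kinases associated with that receptor, not as synthesis enzymes. The authors' deposited table lacks the P calls of the kinases LOC100280511 (0.384), LOC100281584 (0.0689) and LOC100281233 (0.101). The P call of LOC100283443, described as steroid reductase DET2, was lost under 8 alternatives. DWF1, a sterol reductase of the pathway, rose by 0.95 under N deficiency (adjusted p = 0.0175) and 1.17 under P deficiency (adjusted p = 0.00664), the N call lost without N library 1_3 or 4_6 or control library 1_3 or 4_6 (0.0568 to 0.0773).

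Of 3 tested sterol genes, none passed under K deficiency, 1 was higher under N deficiency and 2 were higher under P deficiency. LOC100191975 is annotated as sterol 14-demethylase, a conserved step of sterol synthesis, and had 14.6, 13.1 and 13.1 FPKM in the K-deficient libraries, 21.4, 32.2 and 15 in the N-deficient and 47.9, 25.7 and 44.7 in the P-deficient, against 10.9, 19.2 and 15 FPKM in the control. The change was 1.32 under P deficiency (SE 0.29; adjusted p = 0.00991), 0.54 under N deficiency (adjusted p = 0.227) and -0.10 under K deficiency (adjusted p = 0.868). P deficiency exceeded K deficiency by 1.42 (adjusted p = 0.0146), lost without P library 1_3 (0.0541) or 7_9 (0.0589). LOC107305676, described as 710A1, belongs to the family that desaturates the sterol side chain in Arabidopsis. It had 9.98, 13.9 and 9.3 FPKM in the K-deficient libraries, 20.1, 35.5 and 18.5 in the N-deficient and 28.5, 22.1 and 24.1 in the P-deficient, against 7.55, 13.1 and 13.7 FPKM in the control. The N- and P-deficient libraries all stood above the K-deficient and control libraries.

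LOC107305676 rose by 1.03 under N deficiency (SE 0.27; adjusted p = 0.0206) and 1.09 under P deficiency (adjusted p = 0.0156), with -0.02 under K deficiency (adjusted p = 0.971). It exceeded K deficiency by 1.05 under N deficiency (adjusted p = 0.0315) and by 1.11 under P deficiency (adjusted p = 0.0275). The N against K call was lost without K library 1_3 (0.101), K library 7_9 (0.109) or N library 4_6 (0.11), and the P against K call without K library 1_3 (0.0834), K library 7_9 (0.0925), P library 1_3 (0.0877) or P library 7_9 (0.0768). The N call against control was lost without N library 4_6 (0.0768) or control library 1_3 (0.089) and when only those 6 libraries were fitted (0.0623), the P call without P library 1_3 (0.0543) or control library 1_3 (0.0688). The third sterol gene, LOC100382691, passed in none, at 25.4 ± 2.47, 29 ± 4.85 and 31.4 ± 2.85 FPKM under K, N and P deficiency and 27.3 ± 2.74 FPKM in the control (SD, n = 3).

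Of 2 gibberellin and 2 cytokinin genes, 1 gibberellin gene was higher and 1 cytokinin gene lower under N deficiency, and none passed under K or P deficiency. LOC100274015, annotated with ent-kaurene oxidation, an early step of gibberellin synthesis, had 12.6, 14.5 and 10.7 FPKM in the K-deficient libraries, 36.6, 24.6 and 21.4 in the N-deficient and 11.2, 26.5 and 16.3 in the P-deficient, against 8.81, 8.63 and 10.5 FPKM in the control. It rose by 1.44 under N deficiency (SE 0.27; adjusted p = 0.00351), beside 0.40 under K deficiency (adjusted p = 0.42) and 0.81 under P deficiency (adjusted p = 0.0507). The difference between N and K deficiency was 1.04 (adjusted p = 0.034), lost without any 1 of the 3 K libraries or N library 1_3 or 4_6 (0.0528 to 0.115). CYP714B3, whose family hydroxylates gibberellins in rice, had 5.06 ± 0.829, 5.22 ± 1.31 and 3.48 ± 1.02 FPKM under K, N and P deficiency and 3.47 ± 0.68 FPKM in the control (SD, n = 3), with no call.

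Among 7 tested gibberellin genes outside the P450 set, 1 was lower under K deficiency, 1 higher and 1 lower under N deficiency, and 2 higher and 1 lower under P deficiency. Of all tested genes, 4.83%, 9.63% and 13.0% were higher and 3.89%, 9.33% and 10.4% lower under K, N and P deficiency. The lower gene of the 7 was LOC100283148, a gibberellin 20-oxidase, an enzyme of the late synthesis steps. Its changes were -0.86, -2.27 and -1.91 under K, N and P deficiency (adjusted p = 0.0216, 1.97e-05 and 8.93e-05). Its K call was lost without K library 7_9 (0.0806) or control library 1_3 (0.0932) or 7_9 (0.0534). LOC100284800, given the same description, rose by 1.58 under N deficiency (adjusted p = 0.00629) and 1.55 under P deficiency (adjusted p = 0.00783).

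LOC100280269 carries a zeatin synthesis entry, zeatin being a cytokinin. It had 5.27, 7.83 and 8.38 FPKM in the K-deficient libraries, 1.47, 1.99 and 1.11 in the N-deficient and 5.03, 3.5 and 2.65 in the P-deficient, against 3.38, 3.81 and 11.2 FPKM in the control. All N-deficient libraries were below all others. The change was -1.35 under N deficiency (SE 0.35; adjusted p = 0.0205), lost without N library 1_3 (0.0562) or 7_9 (0.0621), with a pseudocount of 10 (0.0583), with those 6 libraries alone (0.0579) and in the authors' deposited table (0.197). N deficiency was below K deficiency by 1.69 (adjusted p = 0.012), lost without K library 7_9 (0.0504). N deficiency against P deficiency did not pass. The other zeatin gene, LOC100501848, had 4.06 ± 0.411 FPKM under N deficiency and 7.18 ± 2.65 FPKM in the control (SD, n = 3; change -0.65, adjusted p = 0.0514).

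The 78A enzymes promote organ growth in Arabidopsis and rice, and 2 of the maize genes carry growth terms in the deposited annotation. They changed in opposite directions under N deficiency. LOC100274430 had 4.19, 2.41 and 1.61 FPKM in the K-deficient libraries, 12.9, 5.44 and 9.05 in the N-deficient and 1.85, 2.06 and 2.32 in the P-deficient, against 1.12, 1.05 and 0.626 FPKM in the control. The N-deficient libraries were above every other library. It rose 9.82-fold under N deficiency (2.33, SE 0.29, adjusted p = 0.000223), with 0.90 under K deficiency (adjusted p = 0.0798) and 0.68 under P deficiency (adjusted p = 0.108). N deficiency exceeded K deficiency by 1.43 (adjusted p = 0.00993) and P deficiency by 1.65 (adjusted p = 0.00524), and all 3 calls stood under every alternative.

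CYP78A53 (gene 100286852) was near the detection limit in deficient roots. It had 0.201, 0.203 and 0.557 FPKM in the K-deficient libraries, 0.0648, 0 and 0.205 in the N-deficient and 0.074, 0 and 0.152 in the P-deficient, against 1.91, 1.78 and 0.933 FPKM in the control. The change was -0.93, -1.20 and -1.22 under K, N and P deficiency (SE 0.18; adjusted p = 0.00823, 0.000804 and 0.000908). With a pseudocount of 0.1 the K call was lost (0.0555).

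**Figure D4:**
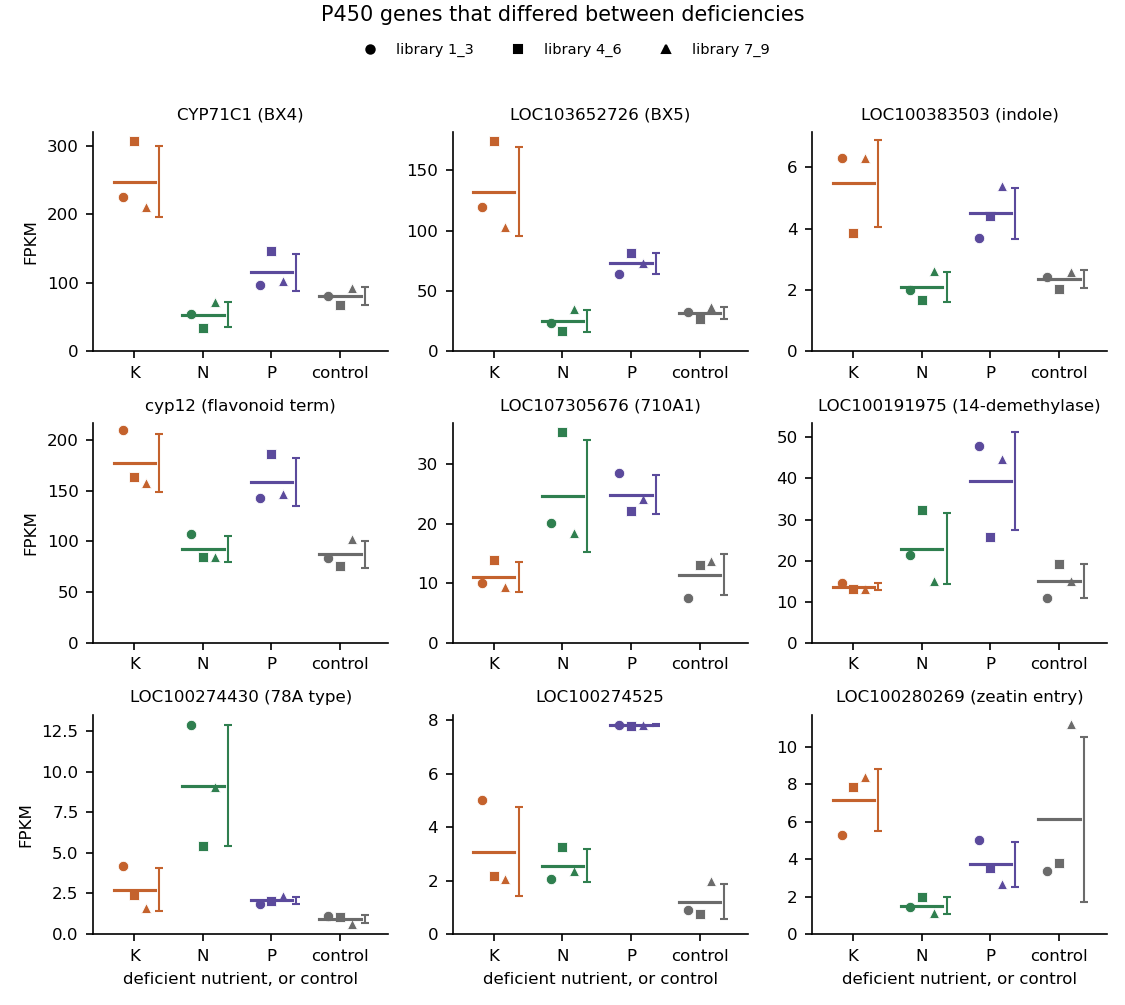
FPKM in each library of 9 P450 genes that differed between deficiencies in a direct comparison; symbols are libraries (1_3 circle, 4_6 square, 7_9 triangle), lines the mean and bars the SD of 3 libraries. LOC103652726 lies between 103 and 174 FPKM in the K-deficient libraries and between 16.6 and 35.3 in the N-deficient, and LOC100274430 between 5.44 and 12.9 FPKM in the N-deficient libraries and at or below 4.19 elsewhere.

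Of 9 tested genes of the fatty acid, suberin and jasmonate group, none passed under K or P deficiency and 1 was higher under N deficiency. LOC103643029 belongs by description to the 94C1 enzymes, which oxidise and so inactivate the jasmonate hormone in Arabidopsis. It had 167, 683 and 600.3 FPKM in the K-deficient libraries, 666, 718 and 1083 in the N-deficient and 483, 531 and 872 in the P-deficient, against 454, 943 and 285 FPKM in the control. The control range alone spanned more than a 3-fold difference. The change was -0.28, 0.69 and 0.29 under K, N and P deficiency (SE 0.54; adjusted p = 0.803, 0.414 and 0.727). LOC100381980, described as 94B3, of the same inactivation route, had 11.4, 29.2 and 27.7 FPKM in the K-deficient libraries, 44.8, 63.1 and 59.3 in the N-deficient and 15.5, 29.6 and 40.6 in the P-deficient, against 16.3, 59.4 and 14.6 FPKM in the control, with no call.

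LOC100501815 was the gene of this group that passed. It had 47.3, 158 and 117 FPKM in the K-deficient libraries, 187, 252 and 344 in the N-deficient and 73, 110.5 and 140.5 in the P-deficient, against 53.6, 136 and 44.3 FPKM in the control. The N-deficient libraries were above all others, and the change was 1.86 (SE 0.49; adjusted p = 0.0215). That call was lost without N library 4_6 (0.0607) or 7_9 (0.0678) or without control library 1_3 (0.0859) or 7_9 (0.0691). No direct comparison between deficiencies passed for LOC100501815. The gene cl308_1, described as 86A1, an enzyme of suberin monomer synthesis in Arabidopsis roots, had 13.4 ± 6.67, 27.2 ± 9.47 and 15.1 ± 7.47 FPKM under K, N and P deficiency and 15.1 ± 5.29 FPKM in the control (SD, n = 3), with no call.

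Control library 4_6 and K library 1_3 stood apart from their groups for several of these abundant genes and for some rarer ones. In control library 4_6, 7 of the 76 tested genes were at least 2-fold above both other control libraries (9.21%, against 3.06% of all tested genes): LOC103643029, LOC100383693, LOC100501815, LOC100381980, LOC100383082, LOC100280034 and LOC100384710. In K library 1_3, 9 genes were at least 2-fold below both other K libraries (11.8%, against 3.18%), among them LOC103643029, LOC100383693, LOC100501815, LOC100381980 and LOC100384710. Over the 12 libraries, LOC100384710 averaged only 0.374 FPKM and LOC100280034 2.35 FPKM. In control library 7_9, 5 genes were at least 2-fold above both other control libraries (6.58%, against 3.53%). In N library 7_9, 6 were at least 2-fold below both other N libraries (7.89%, against 5.06%). P450 genes spread more between libraries of a group than genes did in general. The median coefficient of variation was 24.6%, 28.3% and 26.6% for P450 genes under K, N and P deficiency and 27.4% in the control, beside 16.3%, 17.9%, 17.8% and 18.9% for all tested genes.

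**Figure D5:**
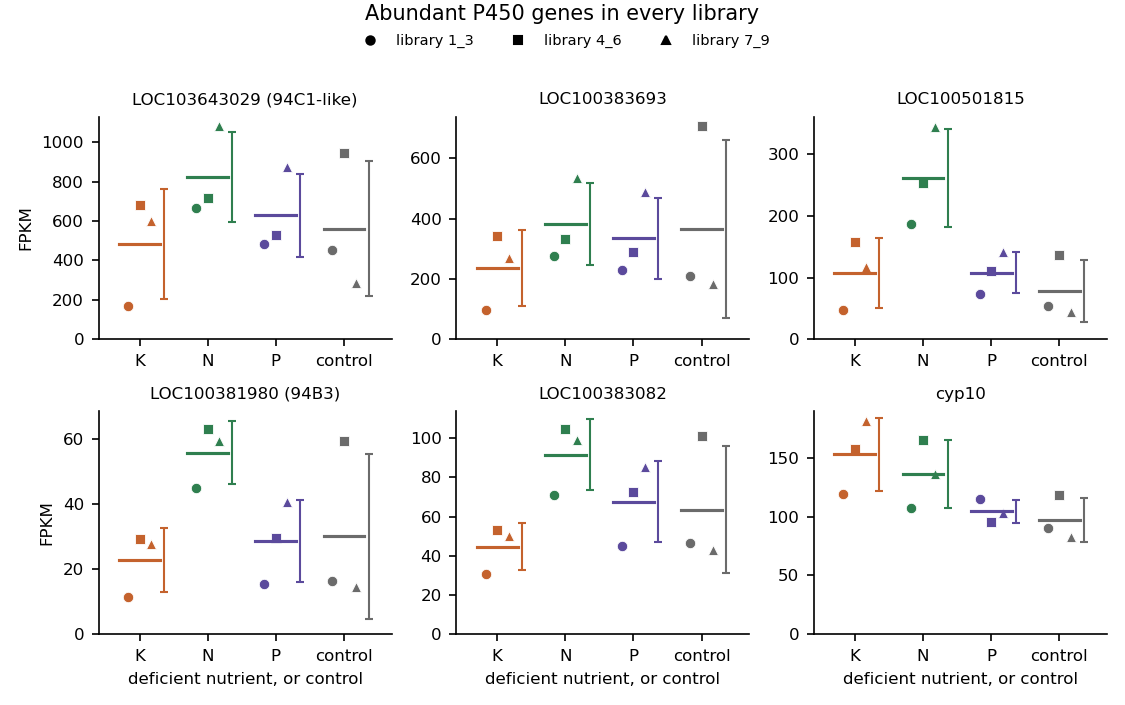
FPKM in each library of 6 abundant P450 genes; symbols are libraries (1_3 circle, 4_6 square, 7_9 triangle), lines the mean and bars the SD of 3 libraries. The control square lies above the other control libraries in LOC103643029 (943 beside 454 and 285 FPKM) and LOC100383693 (706 beside 211 and 183), while the K-deficient circle lies lowest of its group (167 and 96.2).

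Genes with only a general secondary metabolite term counted 8 among those tested, with 1 higher and 1 lower under K deficiency, 1 lower under N deficiency and 2 higher and 1 lower under P deficiency. LOC100382386 was the lower one each time. It had 4.54, 4.7 and 7.32 FPKM in the K-deficient libraries, 4.22, 3.29 and 4.86 in the N-deficient and 2.56, 3.58 and 3.47 in the P-deficient, against 10.9, 11.7 and 9.14 FPKM in the control. All deficient libraries were below the control, with changes of -0.85, -1.18 and -1.47 under K, N and P deficiency (SE 0.19; adjusted p = 0.0185, 0.00128 and 0.000419). The K call was lost without K library 1_3 (0.0743) or 4_6 (0.0669) or control library 1_3 (0.0714) or 4_6 (0.0648). LOC103636322, described as 89A2-like, had 0.924, 2.98 and 2.53 FPKM in the P-deficient libraries, against 0.376, 0.149 and 0.641 FPKM in the control. Its rise of 1.13 (SE 0.35; adjusted p = 0.0382) was lost without K library 7_9, P library 4_6 or 7_9, or control library 1_3 or 4_6 (0.0502 to 0.113). It was also lost on reads (0.0537) and in the authors' deposited table (0.0508). LOC100273010 (higher under K deficiency) and LOC100501658 (higher under P deficiency) were singled out after their values were seen. LOC100273010 rose by 0.63 (adjusted p = 0.048), a call lost without any 1 library but P 1_3 and P 4_6 (0.0534 to 0.158). LOC100501658 rose by 1.0 (adjusted p = 0.0228), a call lost without P library 1_3 or 7_9 or control library 1_3 or 7_9 (0.0613 to 0.0832). That call was also lost with the 6 libraries compared alone (0.0526) and in the authors' deposited table (0.0863).

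The 28 tested genes without a specific term gave 2 higher and 1 lower under K deficiency, 5 higher and 4 lower under N deficiency, and 3 higher and 5 lower under P deficiency. The shares of all tested genes were 4.83% higher and 3.89% lower under K deficiency. They were 9.63% and 9.33% under N deficiency, and 13.0% and 10.4% under P deficiency. No substrate is annotated for any of the 28, so they are described by pattern. LOC100501109 had 19.2, 16.4 and 20.1 FPKM in the K-deficient libraries, 15.9, 12 and 21.8 in the N-deficient and 11.5, 7.77 and 10.3 in the P-deficient, against 65.3, 53 and 35.2 FPKM in the control. It fell in all 3, with changes of -1.38, -1.56 and -2.24 (SE 0.25; adjusted p = 0.00596, 0.0012 and 0.000132), and these calls stood under every alternative.

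LOC100272916 had 14.9, 21.9 and 11.9 FPKM in the K-deficient libraries, 44.2, 24.8 and 14 in the N-deficient and 16.8, 35.3 and 31.9 in the P-deficient, against 6.11, 5.07 and 4.34 FPKM in the control. It rose by 1.45, 2.08 and 2.18 under K, N and P deficiency (SE 0.38; adjusted p = 0.0389, 0.00304 and 0.00287). The K call was lost without any 1 of the 3 K or 3 control libraries, N library 4_6 or P library 7_9 (0.0517 to 0.125). It was also lost on reads (0.131) and in the authors' deposited table (0.11). LOC100501672 had 25, 27.1 and 25.9 FPKM in the K-deficient libraries, 35.4, 24.2 and 27.7 in the N-deficient and 18.4, 21.9 and 25.7 in the P-deficient, against 15.5, 15.4 and 15.2 FPKM in the control, where it was nearly constant. It rose by 0.72, 0.86 and 0.48 (SE 0.15; adjusted p = 0.0136, 0.00233 and 0.0416). The K call was lost without control library 1_3 (0.0509), on reads (0.0624) and in the authors' deposited table (0.206), and the P call without any 1 of the 3 K or 3 control libraries or P library 4_6 or 7_9 (0.0531 to 0.146) and in that table (0.331).

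LOC100191675, LOC100384816 and LOC100274356 passed as lower under N and P deficiency and did not pass under K deficiency. LOC100191675 had 26.2, 27.9 and 21.2 FPKM in the K-deficient libraries, 11.4, 10.3 and 14.5 in the N-deficient and 8.19, 9.9 and 10.9 in the P-deficient, against 33.2, 25.2 and 25.3 FPKM in the control. Its change was -1.15 under N deficiency and -1.43 under P deficiency (SE 0.17; adjusted p = 0.000809 and 0.000225), beside -0.14 under K deficiency (adjusted p = 0.667). Directly, N deficiency was below K deficiency by 1.0 (adjusted p = 0.00387) and P deficiency below K deficiency by 1.29 (adjusted p = 0.00175), and all 4 calls stood under every alternative.

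LOC100384816 had 18.5, 17.1 and 15.4 FPKM in the K-deficient libraries, 12, 6.66 and 10.3 in the N-deficient and 5.38, 8.42 and 7.6 in the P-deficient, against 24.9, 20.3 and 19.3 FPKM in the control. It fell by 1.10 under N deficiency (SE 0.21; adjusted p = 0.00336) and by 1.48 under P deficiency (adjusted p = 0.000687), and P deficiency was below K deficiency by 1.16 (adjusted p = 0.00797). N deficiency was below K deficiency by 0.79 (adjusted p = 0.0351), a call lost without any 1 of the 3 K libraries or N library 4_6 or 7_9 (0.0654 to 0.122). LOC100274356 had 2.84, 3.04 and 2.22 FPKM in the K-deficient libraries, 0.621, 0.793 and 1.4 in the N-deficient and 2.81, 0.703 and 2.26 in the P-deficient, against 7.32, 4.56 and 7.76 FPKM in the control. It fell by 1.95 under N deficiency (SE 0.29; adjusted p = 0.0008) and 1.42 under P deficiency (adjusted p = 0.00649). Its change of -1.01 under K deficiency just missed (adjusted p = 0.0543), although every K-deficient library was below every control library and the authors' deposited table calls it (log2 ratio -1.44, adjusted p = 0.000249), and no direct comparison between deficiencies passed for it.

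Calls in a single deficiency included LOC100274525 for P and LOC100272288 for N. LOC100274525 had 5, 2.18 and 2.05 FPKM in the K-deficient libraries, 2.07, 3.26 and 2.37 in the N-deficient and a narrow 7.82, 7.77 and 7.84 in the P-deficient, against 0.917, 0.76 and 1.97 FPKM in the control. It rose 6.43-fold under P deficiency (2.03, SE 0.27, adjusted p = 0.000477). P deficiency exceeded K deficiency by 1.18 (adjusted p = 0.0212), lost without K library 4_6 or 7_9 or P library 1_3 or 7_9 (0.0593 to 0.0781), and N deficiency was below P deficiency by 1.32 (adjusted p = 0.0116). LOC100272288 had 8.99, 15.5 and 13.7 FPKM in the K-deficient libraries, 19.4, 40.7 and 31.5 in the N-deficient and 10.9, 15.7 and 20.8 in the P-deficient, against 5.16, 11.7 and 6.98 FPKM in the control. It rose by 1.82 under N deficiency (SE 0.34; adjusted p = 0.00316). No direct comparison between deficiencies passed for LOC100272288.

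The remaining calls of this group were smaller or less steady. LOC100382246, described as 71D7, rose by 1.01 under N deficiency (adjusted p = 0.0248), lost without N library 4_6 or 7_9 or control library 1_3 or 7_9 (0.0708 to 0.101) and in the authors' deposited table (0.0898). LOC100192876 fell by 0.92 under P deficiency (adjusted p = 0.0447), lost without K library 4_6, N library 1_3 or 4_6, P library 1_3 or 7_9, or any 1 control library (0.0504 to 0.158). LOC100217161, singled out after its values were seen, rose by 0.74 under N deficiency (adjusted p = 0.0245), lost without N library 1_3 or 4_6 or control library 1_3 or 4_6 (0.0775 to 0.102) and in the authors' deposited table (0.0636). The abundant cyp10 (gene 100273181) had 119.8, 158 and 182 FPKM in the K-deficient libraries, 108, 166 and 137 in the N-deficient and 115, 96 and 103 in the P-deficient, against 90.2, 119 and 82.9 FPKM in the control, and passed in none. The family 72 genes LOC100277073 and LOC100382651, LOC103640488 (81D11-like) and LOC100384695 (family 77) passed in none either, although the authors' deposited table calls LOC103640488 lower under N deficiency (log2 ratio -0.94, adjusted p = 0.0439).

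Compared directly, N deficiency had 3 P450 genes higher (against 3.88% of all tested genes) and 8 lower (against 5.93%) than K deficiency. P deficiency had 5 higher (against 2.95%) and 5 lower (against 6.29%) than K deficiency. N deficiency had 3 higher (against 5.80%) and 8 lower (against 5.47%) than P deficiency. Of the 4 benzoxazinoid and indole genes, 3 were lower under N deficiency than under K deficiency and the same number lower than under P deficiency. All 6 counts moved by more than 1.5 times without single libraries. N against K had 1 higher without K library 1_3, K library 7_9 or N library 4_6 and 6 without control library 4_6, and 5 lower without K library 7_9.

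For P against K, the 5 higher became 3 without any 1 of the 3 K libraries, 1 without P library 1_3 and 2 without P library 7_9. The 5 lower became 2 without K library 1_3, K library 7_9, P library 1_3 or P library 7_9, and 8 without N library 7_9. For N against P, the 3 higher became 1 without K library 4_6, N library 1_3, N library 4_6, P library 1_3 or P library 7_9, and 5 without P library 4_6. The 8 lower became 5 without N library 1_3, P library 1_3 or P library 7_9, and 4 without N library 4_6 or N library 7_9.

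P450s depend on electron donors. A search of the annotation for P450 reductases and cytochrome b5 names gave 13 genes, all tested, among them 3 cytochrome b561 genes and the desaturase/cytochrome b5 protein LOC100279397, which are not known as donors to P450s. None passed under K deficiency, 4 were higher under N deficiency (9.63% of all tested genes) and 3 higher under P deficiency (13.0% of all tested genes), with none lower. Each of these 7 calls was lost without single libraries. The NADPH-cytochrome P450 reductase LOC100216882 had 41, 61.4 and 74.6 FPKM in the N-deficient libraries, against 21.6, 41.1 and 24.1 FPKM in the control. The lowest N-deficient library lies just under the highest control library, and the rise of 1.02 (adjusted p = 0.0222) was lost without N library 4_6 or 7_9 or control library 1_3 or 7_9 (0.0643 to 0.0975). The cytochrome b5 gene LOC103625878 rose by 0.67 under N deficiency (adjusted p = 0.0161) and 0.56 under P deficiency (adjusted p = 0.0339), the first of these lost without N library 1_3 or 4_6 or control library 1_3 or 4_6 (0.0509 to 0.0697) and the other without any 1 P library or control library 1_3 or 4_6 (0.0554 to 0.123). LOC100279397 lost its N call without N library 1_3 or 4_6 or control library 1_3 or 4_6 (0.0647 to 0.0891), and its P call without any 1 K or P library, N library 1_3, or control library 1_3 or 4_6 (0.0594 to 0.162). LOC103649684, a cytochrome b5 reductase by description, lost its P call without P library 1_3 or 7_9 or control library 1_3 or 4_6 (0.0538 to 0.094). The b561 gene cl50078_1 lost its N call without N library 4_6 (0.0574) or control library 1_3 (0.0612). Of these 7 calls, the authors' deposited table keeps only that of LOC100279397 under P deficiency (adjusted p 0.0579 to 0.268 for the others). The other lists drawn up around the P450s were terpene synthases, of which 1 of 6 tested passed, lower under N deficiency, and glycosyltransferases, which often act on P450 products. Of 73 tested glycosyltransferase genes, 8 were higher and 2 lower under K deficiency, 15 higher and 7 lower under N deficiency, and 15 higher and 8 lower under P deficiency. The shares of all tested genes to read these counts against are 4.83% higher and 3.89% lower under K deficiency, 9.63% and 9.33% under N deficiency, and 13.0% and 10.4% under P deficiency.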

How the data were processed

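RNA-seq of maize roots was deposited as 3 tables of the whole series, one per deficiency, with the same 3 control columns in each. Per the file headers, the authors deposited FPKM values per library, group means of normalized counts (a coverage-like signal), a ratio or fold between groups with its log2, and p-values with adjusted p-values from their own comparisons. Sources used here do not name the aligner, genome build or counting method, so no coordinates are printed, and whether reads were split between near-identical P450 copies or counted by strand is not known. No genome or sequence table was used. RefSeq's table for assembly Zm-B73-REFERENCE-NAM-5.0 held all 83 genes and supplied synonyms and gene order only.

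FPKM were tested as log2(FPKM + 1) with limma 3.58.1 in R 4.3.3, with an intensity trend, group as the only term, all 12 libraries and 6 comparisons, over genes that reached 0.5 FPKM in 3 or more libraries. P-values were Benjamini-Hochberg adjusted over all 24311 genes with a threshold of 0.05. Per-gene reads were recovered as whole numbers from the deposited normalized means and the FPKM, and they were used for depth, read counts and 1 alternative, limma's voom, over 25053 genes that reached 10 reads in 3 or more libraries. In K library 7_9 the reads per FPKM, relative to the other libraries, ran from 0.787 to 1.18 (5th to 95th percentile over 17524 genes), against 0.920 to 1.10 at the widest elsewhere, so FPKM and reads differ most there. The test was tried on simulated data before use.

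Genes were named by level (the 10 highest), by size of change (up to 8 in each direction per deficiency, with a mean of at least 1 FPKM and no overlap with the control), by passing in all 3 deficiencies, or as members of small role groups. The role groups were drawn up from the deposited annotation with the values at hand. The members and all gene lists were chosen with earlier results of these data known. Alternatives were other scalings, filters and pseudocounts, a replicate term, fits of the 6 libraries compared, voom on reads, the authors' adjusted p-values, and leaving out each library in turn.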

Additional observations from a re-analysis of the deposited data

Results flagged for a closer look

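These P450 genes had changes against the control of opposite sign in 2 deficiencies, at least 1 of them past the threshold, and the direct comparison of those deficiencies also passed in limma. N deficiency against K deficiency gave -2.24 for CYP71C1, -2.39 for LOC103652726, -1.06 for LOC100383503 and -1.69 for LOC100280269 on the log2(FPKM + 1) scale. N deficiency against P deficiency gave -1.56 for LOC103652726, -0.83 for LOC100383503 and -1.04 for LOC100501658. For all but LOC100280269, the N-deficient change against control itself did not pass. The other direction was seen for LOC107305676, at 1.05 for N deficiency against K deficiency and 1.11 for P deficiency against K deficiency, for LOC100191975, at 1.42 for P deficiency against K deficiency, and for LOC100192876, at 1.05 for N deficiency against P deficiency. The last of these, with an adjusted p of 0.0453, was lost without any 1 of 9 libraries (up to 0.158). For LOC107305676 and LOC100191975 the K-deficient change against control was slight and did not pass. Their calls against K deficiency were lost without single libraries, as given above. For LOC100192876 the N-deficient change against control did not pass. No tested P450 gene passed against the control in opposite directions. LOC100501658 had 5.31, 6.75 and 3.71 FPKM in the N-deficient libraries and 12.3, 8.56 and 14.6 in the P-deficient, and its call was lost without N library 1_3 or 7_9 or P library 1_3 or 7_9 (up to 0.112).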

How the results depend on the processing

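Over all tested P450 genes and comparisons, no direction that had passed was reversed under any alternative. Of the 63 calls against the control, 36 stood under all 22 alternatives, 25 were lost without at least 1 of the 12 libraries, and 18 were lost under at least 1 other setting. The counts higher and lower ran, without single libraries, from 5 to 13 and 3 to 6 under K deficiency, 8 to 15 and 7 to 9 under N deficiency, and 9 to 16 and 8 to 10 under P deficiency. Between deficiencies they ran from 1 to 6 and 5 to 10 for N against K, 1 to 5 and 2 to 8 for P against K, and 1 to 5 and 4 to 11 for N against P. The 3 higher for N against K became 5 with median-ratio scaling and 6 with the replicate block. The 3 higher for N against P became 5 with upper-quartile scaling, 1 with no filter, 1 with a pseudocount of 10, and 5 with voom on reads. The cause was not tested.

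The replicate labels were not taken as pairs. Libraries that share a label deviated together, by a correlation above 0.1, in 10 of 18 pairs (range -0.388 to 0.334), and for 4 of the 12 the best match was the same label. With the replicate block, 10 genes were higher and 5 lower under K deficiency, 14 and 10 under N deficiency, and 14 and 9 under P deficiency, and direct comparisons gave 6 and 8 for N against K, 5 and 5 for P against K, and 4 and 6 for N against P.

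Genes near 0 FPKM, such as CYP78A53, are limited by depth, and every test rests on 3 libraries a group.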

Other observations

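By RefSeq gene order, 7 pairs of P450 genes lie with at most 4 protein-coding genes between them, and in 4 of these pairs no gene was called against the control. Among these 4 is the pair of LOC100192848 and LOC100383167, of which LOC100383167 was not tested. Of the tested P450 genes, 52.6% passed in none of the 3 deficiencies, against 65.6% of all tested genes. CYP71C1 and LOC103652726 lie with 1 protein-coding gene between them, and both passed as higher under K deficiency. LOC100217161 and LOC100384816 are direct neighbours, and under N deficiency LOC100217161 passed as higher (14, 12.6 and 9.95 FPKM, against 5.83, 5.64 and 9.61 in the control) and LOC100384816 as lower (12, 6.66 and 10.3 FPKM, against 24.9, 20.3 and 19.3 in the control). LOC100279536, lower under K deficiency, lies with 1 gene between it and LOC100273463, which passed in none.

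LOC100285285 passed in no comparison with the control but was lower under N deficiency than under P deficiency by 1.97 (adjusted p = 0.0416 in limma), at 16.2 ± 4.33 FPKM under N deficiency and 72.8 ± 38.8 under P deficiency (SD, n = 3), a call lost without any 1 of 8 libraries (up to 0.127). It had 62.4 ± 18.6 FPKM under K deficiency and 25.3 ± 21 in the control. CYP727A4 averaged 5.53 ± 1.32 FPKM under K deficiency, 2.93 ± 0.745 under N deficiency, 2.75 ± 0.444 under P deficiency and 4.43 ± 0.926 in the control (SD, n = 3). It was lower under N than under K deficiency by 0.73 (adjusted p = 0.0404) and lower under P than under K deficiency by 0.79 (adjusted p = 0.0331), calls lost without any 1 of 7 and of 4 libraries. It was not called against the control.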
